A study of Homo sapiens with 6 samples.

Results

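Ribosome assembly starts in the nucleolus, where RNA polymerase I makes a long precursor ribosomal RNA (rRNA). Small nucleolar RNAs in complex with proteins (snoRNPs) guide its chemical modification, the small-subunit processome folds and cleaves the part that becomes the 40S subunit, and separate sets of factors build the 60S subunit around the rest. Growth factor signalling and the transcription factor MYC are known to raise the expression of many of these factors, and cancer cells often show enlarged nucleoli. The 55 genes described here encode ribosome assembly factors. For short they are called nucleolar factors, though late ones such as LTV1 also act in the cytoplasm. The 55 genes were taken from a list of names, out of 21619 genes in the count files, and were chosen with earlier results of these data known. The genes were sorted by known function into 7 role groups: the box H/ACA snoRNP core, the box C/D snoRNP, nucleolar organisers and regulators, the small-subunit processome, late pre-40S factors, the PeBoW complex and pre-60S factors. All 55 passed the filter on low counts, the lowest value being 182 reads for PPAN in 1 library.

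The cells were MDA-MB-231, a human breast cancer line, carrying an EGFP-tagged ribosomal protein L10a. Tagged ribosomes were pulled down with beads against GFP, and the bound polyadenylated RNA was sequenced (translating ribosome affinity purification, TRAP), so the values are levels of ribosome-bound mRNA. All cultures were first held for 24 h in 0.2% serum, including the untreated ones. Of 3 groups, each with a library a and a library b, the first had no ligand added. The second, called the lower dose here, had the chemokine CXCL12 at 30 ng/mL with insulin-like growth factor 1 (IGF1) at 10 ng/mL, and the third, called the higher dose, had them at 300 and 100 ng/mL, each for 6 h. Neither the promoter of the tagged gene nor whether the tagged line was a clone is given in the sources used here. Total RNA was not analysed here, so a higher transcript level and a larger ribosome-bound share of the transcript cannot be told apart. No library used here had CXCL12 or IGF1 alone, so the effect of one cannot be told apart from that of the other.

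Reads on genes ranged from 26255079 to 30280322 per library, where the 3 reads that a count of 0 allows correspond to 0.0991 to 0.114 CPM (read counts scaled to library size after TMM normalization). Libraries of a group differed by a biological coefficient of variation of 1.79%, so small differences passed the test. P-values measure change against the spread between these libraries, which the labels call biological replicates. The test draws each gene's spread toward that of the other genes, so p-values do not rest on that gene's libraries alone. Of 6 genes that this line is known to express, VIM was at 3668 CPM and CD44 at 937 CPM in untreated cells. At the higher dose 5 of the 6 fell (VIM, CD44, KRT8, KRT18 and EGFR, with log2 fold changes of −0.45 to −0.25), and the proliferation marker MKI67 did not pass the test (0.03). At the lower dose all 6 fell. MKI67, at a log2 fold change of −0.19 there, rose by 0.22 from the lower to the higher dose, and its steps differed by 0.41 (edgeR adjusted p = 2.71e-08), so it rose between the doses as most of the nucleolar factors did. The part of these markers in the changes of the nucleolar factors was not tested. Of the markers of other cell types reported here, CD3E, CDH5 and INS had 0 reads in all libraries, ALB and DES had at most 2 reads in a library, and the other 4 (PTPRC, PECAM1, COL1A1 and GFAP, at 0.464 to 16.8 CPM in untreated cells) did not pass the test at the higher dose.

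At the higher dose, most of the nucleolar factors were higher than in untreated cells. In such bulk samples, a change in every cell and a change in the share of cells of one kind cannot be told apart. The 55 genes together took 0.632% and 0.646% of the reads on genes in the untreated libraries, 0.667% and 0.662% in the lower dose libraries, and 0.755% and 0.741% in the higher dose libraries. The median over the 55 genes of log2 CPM, relative to the untreated mean, was 0.05 and 0.04 in the lower dose libraries and 0.34 and 0.27 in the higher dose libraries. Higher dose library a stood somewhat above library b, with 52 and 50 of the 55 genes above their untreated mean.

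Against untreated cells, 50 of the 55 genes rose at the higher dose, 2 fell (UTP3 and MPHOSPH10) and 3 did not pass the test (UTP6, RIOK2 and NOC2L), by edgeR's quasi-likelihood test with an adjusted p under 0.05. Of all 13548 genes tested, 28.1% were called higher and 28.2% lower. The median log2 fold change was 0.31 over the 55 genes, with a range of −0.31 to 0.89, and −0.0008 over all genes tested. In 50 genes both higher dose libraries lay above both untreated libraries, and in 3 both lay below, where 38.2% and 38.1% of all genes tested did so. Rises of at least 1.5-fold were seen in 3 of the 55 genes (NOP16, MRTO4 and RRP9), against 3.6% of all genes tested. With DESeq2, 45 of the 55 genes were called higher and 1 lower, where 22.7% of all genes with an adjusted p were called higher.

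At the lower dose, 16 of the 55 genes rose, 2 fell (again UTP3 and MPHOSPH10) and 37 did not pass the test. The background was 16.7% of all genes tested called higher and 15.9% lower. The median log2 fold change of the 55 genes was 0.04. Both lower dose libraries lay above both untreated libraries in 28 genes and below them in 7, against 32.3% and 32.2% of all genes tested. DESeq2 called 8 of the 55 genes higher at this dose, and 12.5% of all genes to which it gave an adjusted p, so that by DESeq2 the share of the 55 was near the background.

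From the lower to the higher dose, 50 of the 55 genes rose and 0 fell. Of all genes tested, 16.4% were called higher and 17.6% lower. None of the 55 was lower at an unadjusted p under 0.05 in edgeR or at an adjusted p under 0.05 in DESeq2. DESeq2 called 43 higher, where 12% of all genes with an adjusted p were called higher. The median log2 fold change was 0.24. The higher dose libraries did not overlap the lower dose libraries in 51 genes, all higher, where 32.1% of all genes tested were higher and 32.6% lower without overlap. These 3 comparisons share libraries, so their calls do not support each other. By calls, 16 genes rose both at the lower dose and again from the lower to the higher dose, and 33 did not pass the test at the lower dose but were higher at the higher dose than in either other group. IMP3 passed only when higher dose and untreated libraries were compared. In 28 genes the libraries rose at both steps with no overlap at either, as in 18% of all genes tested.

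**Figure D1:**
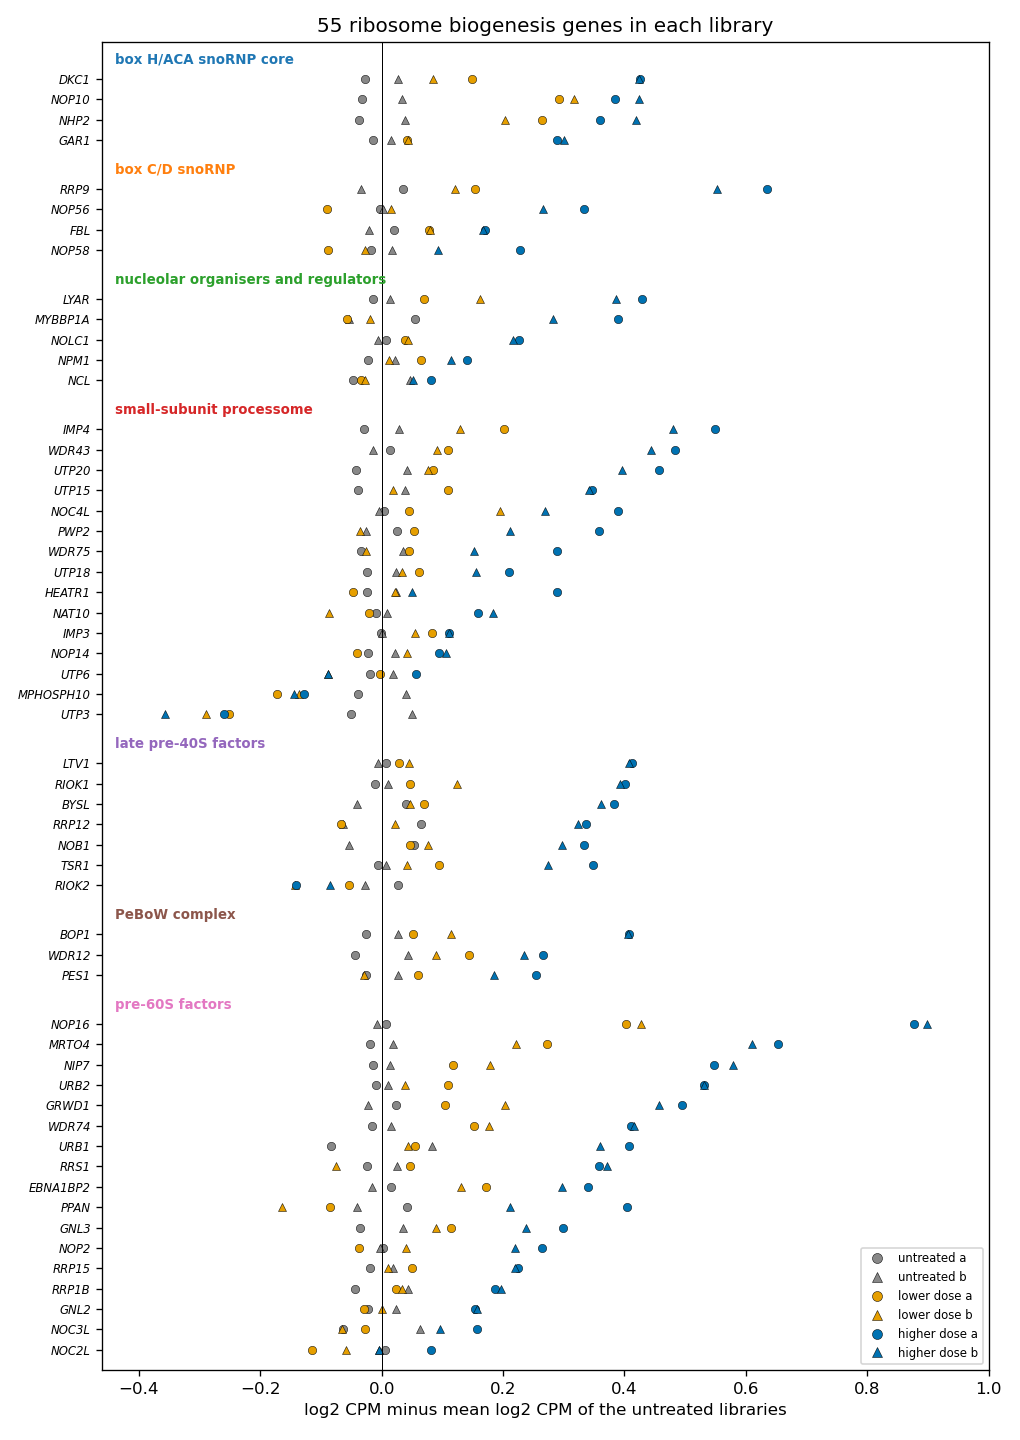
Log2 CPM of each of the 55 genes in each of the 6 libraries, relative to the mean of the untreated libraries (horizontal axis), by role group. Circles are libraries a and triangles libraries b, in grey for untreated, orange for lower dose and blue for higher dose, and most blue points lie to the right of the orange and grey ones except for UTP3, MPHOSPH10, UTP6, RIOK2 and NOC2L.

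**Figure D2:**
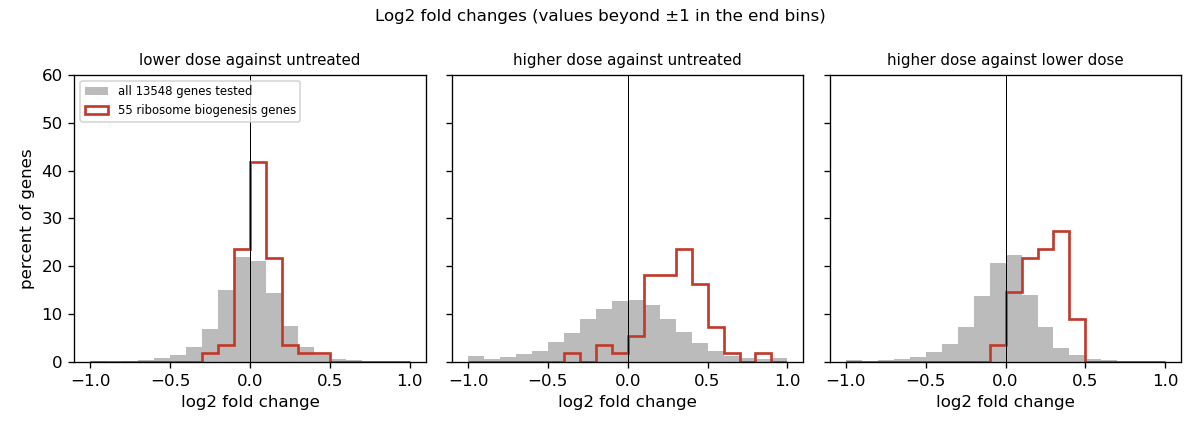
Percent of genes (vertical axis) by log2 fold change (horizontal axis, bins of equal width) for the 55 nucleolar factors (red line) and all 13548 genes tested (grey) in each of the 3 comparisons. The nucleolar factors centre on a median of 0.04 at the lower dose and 0.31 at the higher dose against untreated, while all genes tested centre near 0.

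As most of the genes rose together, their start sites were searched for CACGTG, the canonical E-box, a sequence known to be bound by MYC with its partner MAX and by other factors of that protein class. The windows ran from 250 bases before to 50 bases after each RefSeq start (GRCh38.p14) and were read on both strands, which is the same for this palindrome. Of the 55 genes, 47 were in the sequence table, and NOP58, NOLC1, MPHOSPH10, RRP12, BOP1, RRP1B, RRS1 and URB2 were missing from it. CACGTG was found in 22 of the 47 genes (46.8%), in 12.4% of 9442 tested genes in the table and in 8.77% of all 27305 genes in it. Counted over windows of the same length, 41.8% of the 55 windows of the nucleolar factors and 9.04% of those of tested genes held it. Of the related hexamers, CACATG or its reverse complement CATGTG was found in 4.26% of the 47 genes and 10.0% of tested genes, and CACGCG or its reverse complement CGCGTG in 27.7% and 22.2%. No hexamer counts under more than 1 of the 3 motifs. These shares are descriptions with no test. A match of letters is not a binding site, and no factor's binding was measured here.

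The sequences below show the motif with its flanks for the members with the largest rises among those that hold it and whose values are given in the role groups that follow. Each is 30 bases, 5′ to 3′ on the gene's strand, with the E-box in capitals.
MRTO4: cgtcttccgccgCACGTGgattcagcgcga
RRP9: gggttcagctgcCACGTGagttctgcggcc
IMP4, upstream: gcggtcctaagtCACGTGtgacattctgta
IMP4, at the start: ttctcccggaccCACGTGgaagcggcactc
WDR43: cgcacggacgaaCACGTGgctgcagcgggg
UTP20: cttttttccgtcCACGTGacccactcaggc
LTV1: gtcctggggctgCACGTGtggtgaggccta
LYAR: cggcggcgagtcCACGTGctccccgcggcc
NOP10, upstream: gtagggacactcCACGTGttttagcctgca
NOP10, at the start: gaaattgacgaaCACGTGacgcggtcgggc

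In GRCh38.p14, that of MRTO4 lies at chr1:19251807-19251836 on the plus strand and that of RRP9 at chr3:51941892-51941921 on the minus strand. The IMP4 sequences lie at chr2:130342682-130342711 and chr2:130342900-130342929, that of WDR43 at chr2:28894658-28894687, that of UTP20 at chr12:101280083-101280112 and that of LTV1 at chr6:143843354-143843383, all on the plus strand. LYAR has its sequence at chr4:4290068-4290097, and NOP10 has its pair at chr15:34343289-34343318 and chr15:34343130-34343159, all on the minus strand. Of 26 sites in the 22 genes, 21 began within 50 bases of a start. By side, 17 of the 26 lay after the start and 9 before it. The window ended 50 bases after the start, so every site on that side had to lie within 50 bases. Positions in other genes were not counted, so no closeness to the start can be read from these numbers. Members with and without the hexamer had like medians. In the 22 genes with it the median change at the higher dose was 0.31 on the log2 scale, and all 22 were called higher. In the 25 genes without it the median was 0.31, and 21 were called higher. Of all genes tested, 28.1% were called higher at the higher dose. Changes of other genes that hold the hexamer were not compared, and its part in the rise was not tested. NOP16, with the largest rise of all, had no CACGTG in its window.

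The box H/ACA snoRNP core has 4 proteins that bind guide RNAs for pseudouridylation of rRNA, and the same proteins sit on telomerase RNA. All 4 genes rose at the higher dose and from the lower to the higher dose, and 3 rose at the lower dose. For this and each later role group, the shares of all genes tested called higher were 28.1% at the higher dose, 16.7% at the lower dose and 16.4% between the doses. DKC1, the pseudouridine synthase dyskerin, was at 158 and 164 CPM in untreated libraries, 179 and 171 CPM at the lower dose, and 217 and 217 CPM at the higher dose. Its libraries did not overlap between any of the groups. The log2 fold change at the higher dose was 0.42 ± 0.03 SE (edgeR adjusted p = 1.17e-17), a rise of 34.2%. Its call at the lower dose was lost without untreated library a or lower dose library a.

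NOP10, the smallest protein of the core, was at 122 and 128 CPM in untreated libraries, 153 and 156 CPM at the lower dose, and 164 and 168 CPM at the higher dose. Most of its change lay between untreated cells and the lower dose, where the log2 fold change was 0.30 ± 0.03 SE, against 0.10 ± 0.03 from the lower to the higher dose. The steps differed by −0.20 ± 0.06 (edgeR adjusted p = 0.015), and NOP10 was the 1 gene of the 55 whose first step was larger by this test, a call that held in 6 of 12 alternatives. NHP2, which binds the guide RNA, had 235 and 248 CPM untreated, 290 and 278 CPM at the lower dose and 310 and 322 CPM at the higher dose, with steps of 0.23 and 0.16. GAR1, which helps the enzyme turn over its substrate, had 42.5 and 43.4 CPM untreated, 44.2 and 44.2 CPM at the lower dose and 52.4 and 52.9 CPM at the higher dose (0.29 ± 0.04, edgeR adjusted p = 1.3e-07). The libraries of the 3 groups did not overlap for NOP10, NHP2 or GAR1.

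Transcripts of these genes are short (554 nt for NOP10 and 865 nt for NHP2), and after a correction of each library for transcript length and GC content their log2 fold changes at the higher dose were 0.12 for NOP10, 0.21 for NHP2 and 0.15 for GAR1, all still with an edgeR adjusted p under 0.05. For NOP10 the corrected change from lower to higher dose was −0.01 and did not pass, and the difference of its steps no longer passed the test. DKC1, with 2577 nt, had 0.41 after the correction.

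Box C/D snoRNPs guide 2′-O-methylation of rRNA, with FBL as the methyltransferase and NOP56 and NOP58 as the scaffold pair. RRP9 is the protein that marks the U3 snoRNP, which starts pre-rRNA cleavage. All 4 genes rose at the higher dose. RRP9 rose by 51.1%, from 46.2 and 44.0 CPM in untreated libraries through 50.2 and 49.1 CPM at the lower dose to 70.0 and 66.2 CPM at the higher dose (log2 fold change 0.60 ± 0.04 SE, edgeR adjusted p = 1.64e-17). Its 3 groups did not overlap. Its second step (0.46 ± 0.04) was larger than its first (0.14 ± 0.05), by 0.32 ± 0.08 (edgeR adjusted p = 0.00555), which held in 9 of 12 alternatives. The lower dose call was lost with DESeq2, among others, and held in 10 of 13.

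NOP56 was at 124 and 124 CPM untreated, 116 and 125 CPM at the lower dose, and 156 and 149 CPM at the higher dose. The lower dose libraries lay on either side of the untreated ones, and both higher dose libraries lay above all others. The steps differed by 0.37 ± 0.06 (edgeR adjusted p = 2.38e-05). NOP58, its partner in the complex, was at 67.9 and 69.5 CPM untreated, 64.6 and 67.4 CPM at the lower dose, and 80.5 and 73.3 CPM at the higher dose. Its change at the higher dose was 0.16 ± 0.04 (edgeR adjusted p = 0.000661), which did not pass without higher dose library a (0.09) or after the length and GC correction (0.07). FBL moved in small steps, from 288 and 280 CPM through 300 and 300 CPM to 319 and 319 CPM (0.17 ± 0.03 at the higher dose), and its call was lost after the length and GC correction (0.05).

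All 5 nucleolar organisers and regulators rose at the higher dose, and 1 of them (LYAR) rose at the lower dose. Changes of NPM1 and NCL were small. NPM1, the histone and ribosomal protein chaperone nucleophosmin, had the highest level of the 55 per coding length, 1947 CPM per kb of coding sequence over all libraries, and 45 pseudogenes carry its name in GENCODE release 29, so reads may be split or lost between copies. It stood at 1627 and 1676 CPM untreated, 1726 and 1666 CPM at the lower dose, and 1820 and 1787 CPM at the higher dose. The higher dose libraries lay above all others, by a log2 fold change of 0.13 ± 0.03 from untreated (edgeR adjusted p = 3.67e-05), a call lost after the length and GC correction (0.03). Without NPM1, the summed CPM of the other 54 genes still ran from 4685 and 4775 untreated through 4951 and 4938 at the lower dose to 5752 and 5641 at the higher dose.

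NCL, nucleolin, which binds pre-rRNA and ribosomal DNA chromatin, was at 634 and 676 CPM untreated, 639 and 642 CPM at the lower dose, and 692 and 678 CPM at the higher dose. Untreated library b nearly reached the lower of the higher dose libraries. The change was 0.06 ± 0.03 (edgeR adjusted p = 0.0422), the smallest of the group, and its call held in 6 of 13 alternatives. It was lost with DESeq2 and without any of untreated library a or either higher dose library, among others.

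LYAR, a nucleolar zinc finger protein, rose from 66.4 and 67.7 CPM through 70.4 and 74.99 CPM to 90.3 and 87.7 CPM (0.41 ± 0.04 SE, edgeR adjusted p = 1.6e-13), with no overlap between groups. Its call at the lower dose was lost with DESeq2 and after the length and GC correction, among others. MYBBP1A, a nucleolar regulator that also binds transcription factors, was at 44.0 and 40.8 CPM untreated, 40.7 and 41.8 CPM at the lower dose, and 55.5 and 51.5 CPM at the higher dose. Untreated and lower dose libraries overlapped and the higher dose libraries stood apart. Its steps differed by 0.41 ± 0.08 (edgeR adjusted p = 0.000843), and MYBBP1A and NOP56 were the 2 genes whose difference of steps passed under every alternative tried. NOLC1, a snoRNP chaperone, changed by 0.22.

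The small-subunit processome is the large assembly on the 5′ part of the pre-rRNA, and 15 of its genes were among the 55. At the higher dose 12 rose, 2 fell and 1 did not pass. At the lower dose 2 rose, 2 fell and 11 did not pass, near the shares of all genes tested (16.7% higher and 15.9% lower). From the lower to the higher dose 11 rose and 0 fell, against 16.4% and 17.6% of all genes tested. There, 0 were lower at an unadjusted p under 0.05 in edgeR and 0 in DESeq2. The 2 that rose at the lower dose (IMP4 and WDR43) were not called there by DESeq2, among others, and held in 10 and 6 of 13 alternatives. Both genes of the 55 that fell belong to this group.

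IMP4, of the trimer that binds U3, rose by 42.8%, from 43.8 and 45.6 CPM through 51.4 and 48.9 CPM to 65.4 and 62.4 CPM (0.51 ± 0.04 SE, edgeR adjusted p = 5.96e-15). The 3 groups did not overlap. IMP3 was at 109 and 109 CPM untreated, 116 and 114 CPM at the lower dose, and 118 and 118 CPM at the higher dose (0.11 ± 0.03, edgeR adjusted p = 0.00376). MPHOSPH10, the third protein, was at 28.4 and 30.0 CPM untreated, 25.9 and 26.5 CPM at the lower dose, and 26.7 and 26.4 CPM at the higher dose. Both treated groups lay below the untreated libraries, by 0.16 ± 0.06 and 0.14 ± 0.06 on the log2 scale (edgeR adjusted p = 0.0265 and 0.0317). Both calls were lost with DESeq2 and without untreated library b, among others, and held in 9 of 13 alternatives.

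UTP3, also called SAS10, fell by 17.3% at the lower dose and by 19.4% at the higher dose. Its levels were 48.5 and 51.9 CPM untreated, 42.1 and 41.0 CPM at the lower dose, and 41.9 and 39.2 CPM at the higher dose. The treated libraries all lay below the untreated ones and overlapped each other. The log2 fold changes were −0.27 ± 0.05 SE (edgeR adjusted p = 6.07e-06) and −0.31 ± 0.05 (edgeR adjusted p = 1.54e-07), and from lower to higher dose −0.04 ± 0.05 (edgeR adjusted p = 0.614). Both falls passed under all 13 alternatives.

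WDR43, a subunit of the complex that joins pre-rRNA transcription and processing (t-UTP), was at 68.9 and 67.6 CPM untreated, 73.7 and 72.7 CPM at the lower dose, and 95.4 and 92.9 CPM at the higher dose (0.46 ± 0.04 SE, edgeR adjusted p = 4.25e-16). UTP15, of the same subcomplex, rose from 16.5 and 17.5 CPM to 21.6 and 21.6 CPM (0.34 ± 0.07), with lower dose libraries at 18.4 and 17.2 CPM that overlapped the untreated ones. HEATR1, the largest t-UTP subunit, was at 28.2 and 29.1 CPM untreated, 27.7 and 29.1 CPM at the lower dose, and 35.0 and 29.7 CPM at the higher dose. Its higher dose libraries were far apart, and the call (0.17 ± 0.06, edgeR adjusted p = 0.0115) rested on library a: without it the log2 fold change was 0.05 and did not pass. DESeq2 did not make the call either, and it held in 10 of 13 alternatives. HEATR1 also had the lowest level of the 55 per coding length, 4.63 CPM per kb.

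UTP20, a very long scaffold protein, rose from 43.7 and 46.4 CPM through 47.8 and 47.5 CPM to 61.9 and 59.3 CPM (0.42 ± 0.04 SE, edgeR adjusted p = 3.77e-12), and its transcript of 9025 nt is the second longest of the 55 after that of URB1. NOC4L, the partner of NOP14, rose from 19.97 and 19.85 CPM through 20.5 and 22.8 CPM to 26.1 and 24.0 CPM (0.33 ± 0.06). NOP14 itself had 74.7 and 77.0 CPM untreated, 73.7 and 78.0 CPM at the lower dose, and 80.9 and 81.6 CPM at the higher dose (0.10 ± 0.04, edgeR adjusted p = 0.0241), a call lost with DESeq2 and without either higher dose library, among others. UTP6 did not pass in any comparison, at 61.8 and 63.5 CPM untreated, 62.6 and 59.0 CPM at the lower dose, and 65.2 and 59.0 CPM at the higher dose (−0.01 ± 0.04, edgeR adjusted p = 0.796), and its groups overlapped throughout. The other 4 genes of the group (WDR75, PWP2, UTP18 and NAT10) changed by 0.17 to 0.29 on the log2 scale at the higher dose.

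**Figure D3:**
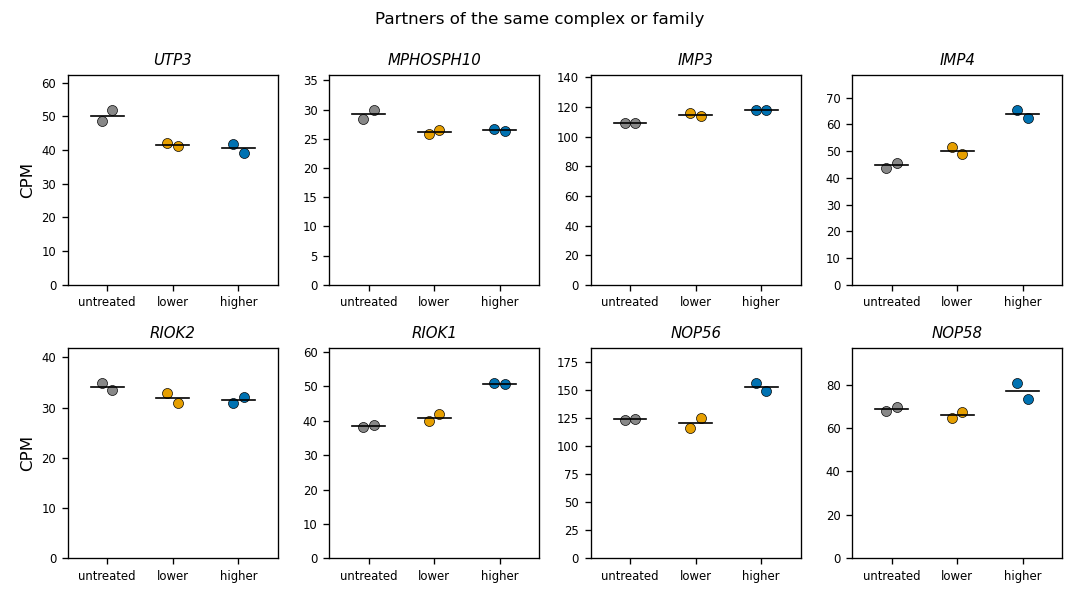
CPM (vertical axes, from 0, each gene on its own scale) of 8 genes in the 3 groups, with 1 point per library and a bar at the mean of the 2 libraries. UTP3 and MPHOSPH10 are lower in both treated groups, the log2 fold change at the higher dose is 0.11 for IMP3 and 0.51 for IMP4, −0.11 for RIOK2 and 0.40 for RIOK1, and 0.30 for NOP56 and 0.16 for NOP58.

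Late pre-40S factors finish and export the small subunit. Of 7 genes, 6 rose at the higher dose and from the lower to the higher dose. None passed at the lower dose in edgeR, at an adjusted or an unadjusted p under 0.05, or in DESeq2. After the length and GC correction TSR1 was called higher there (0.12) and RIOK2 lower. LTV1, a factor that is shed from the pre-40S particle in the cytoplasm, was at 38.2 and 37.8 CPM untreated, 38.8 and 39.2 CPM at the lower dose, and 50.6 and 50.4 CPM at the higher dose. The untreated and lower dose libraries lay close together and the higher dose libraries stood apart. Its change was 0.41 ± 0.05 SE (edgeR adjusted p = 5.14e-11). The steps differed by 0.34 ± 0.08 (edgeR adjusted p = 0.00617), a call that held in 9 of 12 alternatives.

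RIOK1 and RIOK2 are related kinases that act in turn on the pre-40S particle. RIOK1 rose from 38.3 and 38.8 CPM through 39.8 and 42.0 CPM to 50.9 and 50.6 CPM (0.40 ± 0.05 SE, edgeR adjusted p = 1.73e-10). RIOK2 was at 34.8 and 33.6 CPM untreated, 32.9 and 30.98 CPM at the lower dose, and 31.0 and 32.2 CPM at the higher dose. All 4 treated libraries lay below the untreated ones, but the difference did not pass the test (−0.11 ± 0.05, edgeR adjusted p = 0.0698). After the length and GC correction RIOK2 was called lower at both doses. BYSL, RRP12, TSR1 and NOB1, the last of them the nuclease that makes the mature end of 18S rRNA, changed by 0.31 to 0.37 on the log2 scale at the higher dose.

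The PeBoW complex, named after PES1, BOP1 and WDR12, is required for processing of the rRNAs of the large subunit. All 3 genes rose at the higher dose, BOP1 the most. BOP1 went from 137 and 142 CPM through 144 and 151 CPM to 185 and 184 CPM (0.41 ± 0.03 SE, edgeR adjusted p = 1.91e-16), with no overlap between groups. PES1 was at 78.0 and 80.9 CPM untreated, 82.8 and 77.8 CPM at the lower dose, and 94.7 and 90.3 CPM at the higher dose (0.22 ± 0.04, edgeR adjusted p = 1.81e-06). WDR12 rose from 27.4 and 29.1 CPM through 31.2 and 30.0 CPM to 33.9 and 33.2 CPM (0.25 ± 0.05). Of the 3, only BOP1 passed at the lower dose (0.08 ± 0.03, edgeR adjusted p = 0.0431). That call was lost with DESeq2, among others, and held in 6 of 13 alternatives.

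Pre-60S factors were the largest group, with 17 genes, and held the 2 largest rises of all 55. At the higher dose 16 rose, at the lower dose 7 rose, and from the lower to the higher dose all 17 rose. NOP16, a nucleolar protein of early 60S assembly whose gene is a known MYC target, was at 34.1 and 33.7 CPM untreated, 44.8 and 45.6 CPM at the lower dose, and 62.3 and 63.3 CPM at the higher dose. The groups were far apart compared with the distance between libraries of a group. NOP16 rose by 85.2% at the higher dose (0.89 ± 0.05 SE, edgeR adjusted p = 1.01e-23), in steps of 0.42 ± 0.05 and 0.47 ± 0.04 that did not differ by the test (difference 0.06 ± 0.08, edgeR adjusted p = 0.762). MRTO4, which holds the place of the ribosomal stalk protein on the pre-60S particle, rose by 54.9%, from 80.6 and 82.7 CPM through 98.6 and 95.2 CPM to 128 and 125 CPM (0.63 ± 0.04, edgeR adjusted p = 3.3e-22).

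NIP7, needed for processing of pre-rRNA, rose at the higher dose (0.56 ± 0.04 SE, edgeR adjusted p = 6.03e-17). Its levels ran from 45.2 and 46.1 CPM through 49.5 and 51.6 CPM to 66.7 and 68.2 CPM. GRWD1, whose yeast counterpart is a chaperone of a ribosomal protein, rose from 92.8 and 89.9 CPM through 98.2 and 105 CPM to 129 and 125 CPM (0.48 ± 0.04, edgeR adjusted p = 3.33e-17). Neither gene had overlapping groups. URB2 and URB1, scaffolds of early pre-60S particles with long transcripts of 5613 and 10832 nt, changed mainly between the doses. URB2 was at 19.9 and 20.2 CPM untreated, 21.6 and 20.6 CPM at the lower dose, and 29.01 and 29.03 CPM at the higher dose (0.53 ± 0.06, edgeR adjusted p = 4.36e-11). URB1 was at 28.7 and 32.2 CPM untreated, 31.5 and 31.3 CPM at the lower dose, and 40.3 and 39.0 CPM at the higher dose (0.38 ± 0.05, edgeR adjusted p = 2.14e-08). The steps of these genes differed by 0.38 ± 0.11 for URB2 and by 0.29 ± 0.09 for URB1 (edgeR adjusted p = 0.0185 and 0.047), calls that held in 8 and 3 of 12 alternatives.

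NOC2L was the 1 pre-60S gene that did not pass at the higher dose. It was at 98.1 and 97.5 CPM untreated, 90.3 and 93.9 CPM at the lower dose, and 103 and 97.5 CPM at the higher dose. The lower dose libraries lay below all others, and higher dose library b lay beside the untreated ones. The change was 0.04 ± 0.04 from untreated (edgeR adjusted p = 0.37) and 0.13 ± 0.04 from the lower dose (edgeR adjusted p = 0.00475), the latter lost without higher dose library a, without lower dose library a and with DESeq2. NOC3L, its partner in pre-60S transport, changed by 0.12 on the log2 scale at the higher dose, a call lost with DESeq2 and after the length and GC correction, among others. PPAN had the fewest reads of the 55, shares exons with the read-through gene PPAN-P2RY11, and is uncertain for that reason. Its call (0.31 ± 0.10) was lost with DESeq2, among others, and held in 10 of 13 alternatives. The other 8 genes (NOP2, WDR74, RRP1B, RRS1, EBNA1BP2, GNL3, GNL2 and RRP15) ranged from 0.15 to 0.41 at the higher dose.

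The 2 dose steps were compared within each gene as the log2 change from lower to higher dose minus that from untreated to lower dose. In 19 of the 55 genes the second step was larger, in 1 (NOP10) it was smaller, and 35 did not pass, with a median difference of 0.19. The 19 were 1 gene of the H/ACA core (DKC1), 3 C/D genes (NOP56, NOP58 and RRP9), 1 organiser (MYBBP1A), 4 processome genes (WDR43, PWP2, UTP20 and NAT10), 3 late pre-40S genes (BYSL, RRP12 and LTV1), BOP1 of PeBoW, and 6 pre-60S genes (NOP2, RRS1, NIP7, URB1, URB2 and NOC2L). Among all genes tested, 2.56% were called higher and 3.93% lower by this contrast. Both steps use the same lower dose libraries, so an error there moves them in opposite directions. The number with a larger second step was 9 without lower dose library a (0.923% of all genes tested), 8 without lower dose library b (1.05%) and 10 without higher dose library a (1.22%). It was 3 with DESeq2 (1.9% of genes with an adjusted p), which gave an adjusted p for 45 of the 55 genes. No dose lay between those tested.

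**Figure D4:**
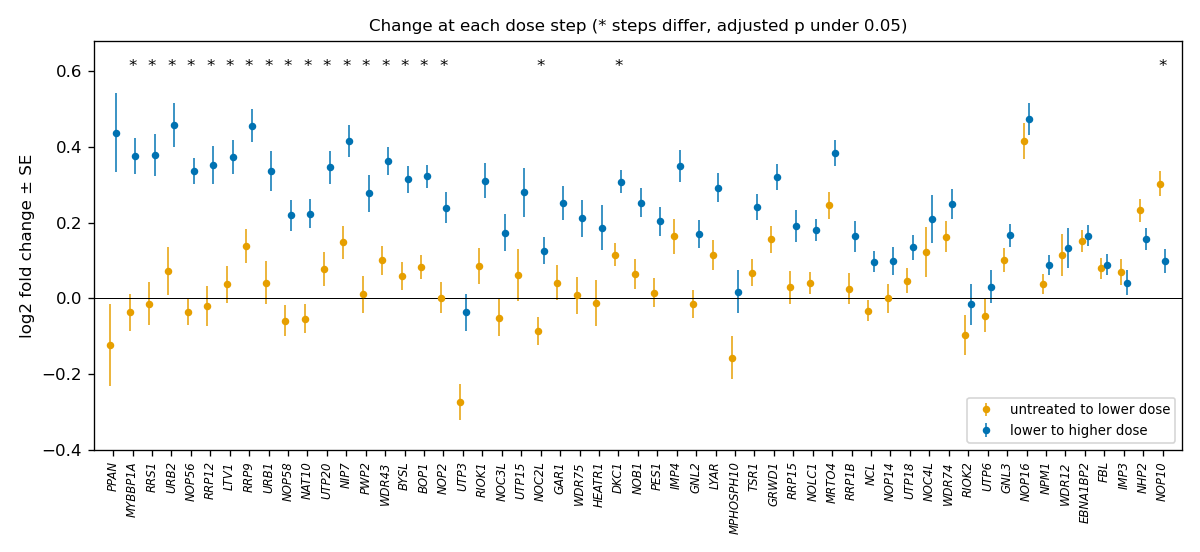
Log2 fold change ± SE (vertical axis) from untreated to lower dose (orange) and from lower to higher dose (blue) for each of the 55 genes, ordered by the difference of the steps, with an asterisk where the difference had an edgeR adjusted p under 0.05. The second step is larger for 19 genes with an asterisk and smaller for NOP10, and it is near the first for NOP16, FBL and EBNA1BP2.

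Transcript length moved with the fold change over all genes tested, and the nucleolar factors had shorter transcripts than the rest, with a median of 2402 nt against 3161 nt. Spearman's rho between coding length and log2 fold change across the 55 genes was −0.27 for the higher dose against untreated, −0.54 for the lower dose and 0.02 from the lower to the higher dose. With transcript length it was −0.18, −0.35 and −0.0032. Genes are not independent replicates and share their libraries, so no p is given. Over 12978 tested genes with a transcript model, the values were −0.34, −0.38 and −0.21 with coding length and −0.25, −0.24 and −0.19 with transcript length. For the difference of the dose steps, rho with coding length was 0.45 across the 55 genes and 0.15 across all tested. Of the 18 genes with the shortest transcripts, all 18 rose at the higher dose and 9 rose at the lower dose. Of the 18 with the longest, 16 and 1 did, where 28.1% and 16.7% of all genes tested, of any length, were called higher. After the correction for length and GC content, 46 of the 55 genes were called higher at the higher dose and 3 lower, with a median of 0.27. Of all genes tested, 26.8% were called higher after this correction. The part of length in the results for single genes was not tested beyond this correction.

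**Figure D5:**
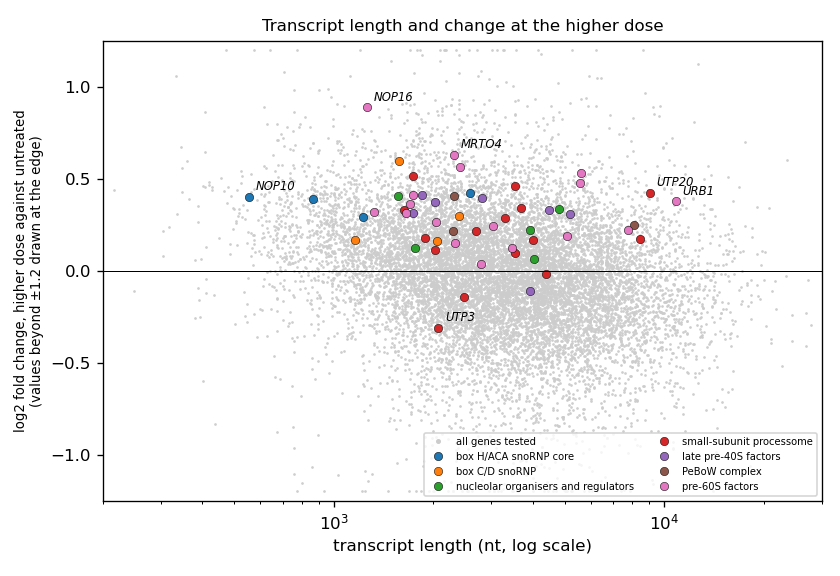
Log2 fold change of the higher dose against untreated (vertical axis) by transcript length in nt (horizontal axis, log scale) for all genes tested with a transcript model (grey) and the 55 nucleolar factors by role group. NOP10 is short and UTP20 and URB1 are long, and all 3 lie above 0, while UTP3 lies below.

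Other ribosome assembly genes, listed from general knowledge and not among the 55, had smaller medians. At the higher dose 28.1% of all genes tested were called higher and 28.2% lower. Of 29 other small-subunit genes, 19 rose and 3 fell at the higher dose, with PNO1, the partner of NOB1, at 0.66 on the log2 scale and DIEXF at −0.17. Of 37 other large-subunit genes, 24 rose and 4 fell, with PAK1IP1 at 0.85 and GLTSCR2 (NOP53) at −0.54. Of 10 other snoRNP genes, 4 rose and 6 did not pass, with NHP2L1, the RNA-binding protein of the C/D and U4 particles, at 0.33. The nuclear exosome and its cofactors, which trim pre-rRNA, had 9 of 16 genes higher and 1 lower, with EXOSC3 at 0.54 and EXOSC10 at −0.20. The medians of these lists were 0.16, 0.16, 0.05 and 0.16, beside 0.31 for the 55 genes and −0.0008 for all genes tested. No test compared the lists. The 55 genes and these lists were chosen with earlier results of these data known, and the part of that choice in the medians was not tested.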

How the data were processed

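The authors deposited raw read counts by gene symbol, made with HTSeq, with 1 file per library. CASAVA 1.8.1, TopHat 1.4.0 and hg19 are also named, per the submitters' processing notes; which annotation, counting mode and strand setting were used is not given in the sources used here. HTSeq's 5 summary lines (9.40% to 10.2% of a library's reads) were left out. The main test was that of edgeR 4.0.16 under R 4.3.3 (TMM, filterByExpr by group, robust quasi-likelihood F test, two-sided, Benjamini-Hochberg over 13548 genes tested, threshold 0.05) in 1 fit of 3 group means over 6 libraries, with 3 residual degrees of freedom. TMM makes changes relative to the other genes. Each SE is the size of the log2 change divided by √F. Groups came from the treatment labels. Replicates differed by more than counting noise (chi-square per degree of freedom 1.52 to 1.98). Letters a and b did not pair libraries (correlations of deviations −0.05 to 0.00). DESeq2 1.42.0, other scalings, filters, a length and GC correction (GENCODE release 29 models) and leaving out libraries were alternatives. The scripts were tested on simulated data.

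The members, role groups and other lists were chosen with earlier results of these data known, the lists from general knowledge. In each role group, values are given for the largest changes past the threshold, the smallest change, every gene that fell or did not pass, and, over all groups, the highest and lowest levels per coding length. NHP2, FBL, NOP56, NOLC1, IMP3, NOP14, WDR12, PPAN and NOC3L were added after values were seen, to complete a complex or name an uncertain gene. Matching symbols by RefSeq synonyms placed TSR3 and TMA16, and NOP9 was not matched. Sequences came from RefSeq. Protein sequences were not used here. Of the markers of other cell types, 1 is not reported here.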

Additional observations from a re-analysis of the deposited data

How the results depend on the processing

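Over the alternatives tried for the higher dose against untreated cells, 42 of the 50 genes called higher kept their call in all 13, and FBL, NOP58, NCL, NPM1, HEATR1, NOP14, PPAN and NOC3L lost it at least once. At the lower dose 6 of 16 kept theirs (NHP2, NOP10, NOP16, WDR74, EBNA1BP2 and MRTO4), from the lower to the higher dose 39 of 50, and for the difference of steps 2 of 19. UTP3 remained called lower at both doses in all 13. With DESeq2 the number lower at the higher dose was 1, the lower dose had 8 higher and 1 lower, and the difference of steps had 3 larger and 0 smaller (NOP10 not called). With the length and GC correction the median at the higher dose was 0.27. The lower dose then had 4 lower (NOP58, MPHOSPH10, UTP3 and RIOK2), where 2056 of 13548 genes tested were called lower. After this correction 0 genes had a smaller second step, and the change of NOP10 between the doses was −0.012. Leaving out 1 library at a time gave, at the higher dose, 1 to 2 lower and a median of 0.27 (without higher dose a) to 0.34 (without higher dose b). At the lower dose it gave 9 (without untreated a) to 15 higher, with 10 without either lower dose library, and 1 to 3 lower. From the lower to the higher dose the median ran from 0.20 (without higher dose a) to 0.27 (without higher dose b), and the second step was larger in 8 (without lower dose b) to 23 genes (without untreated a) and smaller in 0 to 1. The causes were not tested. A group left with 1 library was taken to vary like the others. With the letter as a replicate block, 49 genes were higher at the higher dose, 16 at the lower dose and 49 between the doses. The second step was larger in 18. Of all genes tested, this fit called 27.8%, 16.4%, 16% and 2.23% higher in these comparisons. For the difference of steps, a fit of 4 libraries was not run, since it needs all 3 groups. The lowest count of a member in a library was 182 reads (PPAN), and the part of depth was not tested.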
